A study of Mus musculus with 24 samples.

Results

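Skint3, Chst2, Alb, Hyal6, Otud1, Tesk1 and Coro2a are 7 genes that stood several-fold higher in naive Cre+ than in naive Cre- mouse microglia, out of 49315 gene identifiers counted. They were chosen by name for that rise, from fitted fold changes in the naive libraries, so their naive values are given as a description and without a test. Demyelination and both remyelination states have their own Cre+ and Cre- libraries, and the genotype comparisons there were tested. The naive fold changes do not use those libraries, but the genes were chosen with earlier results of these data known. The choice is therefore not shown to be blind to the other states. All 7 genes passed the filter on low counts that left 17579 genes. A gene that is low in Cre- libraries could pass it through a group in which it was high.

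Microglia, the resident macrophages of the brain, had been sorted as CD45-intermediate, CD11b-positive cells from adult mice, and RNA was sequenced in 24 libraries, 8 groups of 3. Cre+ mice carried the tamoxifen-activated recombinase creERT2 at the Cx3cr1 locus, a fractalkine receptor gene active in microglia, for deletion of Dicer1, and Cre- mice lacked the recombinase; the series text calls these genotypes KO and WT. Both genotypes received tamoxifen in every state. In the naive state mice had tamoxifen only. Demyelination was at 6 weeks of cuprizone, a copper chelator fed to mice. Tamoxifen was given there at 4 to 5 weeks, as the series text writes it. Remyelination was after 6 weeks of cuprizone and 6 weeks of normal diet, with the same tamoxifen timing (start tamoxifen). The labels give tamoxifen at the start for naive, demyelination and this remyelination state alike. The other remyelination state had the same schedule with tamoxifen in week 5 of cuprizone (peak tamoxifen). The series text calls the 3 samples of a group biological replicates, and the labels do not number the animals, so the tests measure only the spread among those libraries. Whether Cre- mice carry floxed Dicer1 is not stated in the labels used, and the driver is also active in other cells that express Cx3cr1.

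Dicer1 encodes the ribonuclease that cuts precursor hairpins into mature microRNAs (miRNAs). A miRNA lowers the amount or the translation of mRNAs that pair with its seed, bases 2 to 8 from its 5′ end, mostly in the 3′ untranslated region (3′ UTR). The 7 genes belong to no common pathway. Skint3 encodes a membrane protein of the butyrophilin-like Skint family, best known from skin and thymus, and Alb encodes albumin, the main plasma protein made by hepatocytes. Hyal6 is a gene of the hyaluronidase family, enzymes that cut the matrix sugar hyaluronan, and Chst2 encodes a Golgi enzyme that adds sulfate to N-acetylglucosamine in glycans. Inside the cell, Coro2a encodes an actin-binding coronin that is also found in the NCoR corepressor complex, Tesk1 encodes a kinase that phosphorylates the actin-severing protein cofilin, and Otud1 encodes a deubiquitinase of the OTU family.

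Values are counts of a gene per 1000000 counts of tested genes (CPM), on library sizes scaled by the TMM method. Library totals ranged from 19476284 to 44526670 counts in naive and from 21865238 to 32708382 in demyelination samples, but only from 8873275 to 12560540 with start and from 8940567 to 12092415 with peak tamoxifen, so Skint3, Alb and Hyal6 rest on 4 to 30 counts in each start-tamoxifen library. A list of 10 microglia markers, Cx3cr1 among them, summed to 34800 CPM or more in every library. In naive libraries the sums were 60520 to 61430 CPM in Cre+ against 69660 to 75250 CPM in Cre-, with 3 of 10 called lower. In demyelination they were 38760 to 41810 CPM against 43090 to 47290 CPM, with none called. Cx3cr1, which carries creERT2 in Cre+ mice, stood at 41.5% to 59.3% of the Cre- mean of its state in 9 Cre+ libraries and at 1.61% to 2.18% in the other 3, which are naive Cre+ replicate 1 and demyelination Cre+ replicates 1 and 3. These 3 libraries are called the low-Cx3cr1 libraries here, and the results of the 7 genes in which they take part are also given without them. In demyelination 14 other genes from the lists below were called, and Hmmr was the only one of them still called without these libraries, with 1 Cre+ library left. The targeted gene does not check the genotype labels here: Dicer1 ranged over 11.1 to 18.6 CPM for naive Cre- and over 21.8 to 24.3 CPM for naive Cre+, which is higher and not lower. Its ranges overlapped in demyelination (15.2 to 23.1 in Cre-, 11.6 to 17.5 in Cre+) and in both remyelination states, and a gene total includes exons that a deletion leaves in place.

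Since the deletion targets miRNA maturation, the longest annotated 3′ UTR of each gene was searched for the 7 bases complementary to seed positions 2 to 8 of 22 seed families named for microglia, on the sense strand; of the 24 miRNAs listed, 1 (miR-124-3p) had no sequence in the table used and was not searched. A choice of the mature miRNAs with a match is shown as RefSeq gives them, with the seed in capitals.
let-7a-5p: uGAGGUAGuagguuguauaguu
miR-146a-5p: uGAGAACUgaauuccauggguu
miR-181a-5p: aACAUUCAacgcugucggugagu
miR-142a-3p: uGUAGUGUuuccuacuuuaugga

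Seed matches were unevenly spread over the genes and families. None of the 7 genes matched miR-155-5p, miR-223-3p, miR-21a-5p, miR-29a-3p, miR-16-5p, miR-24-3p or miR-103-3p, where miR-16-5p matched 24.2% of tested genes. Of the 22 families miR-146a-5p and miR-181a-5p matched the most of the 7 genes. The shares of tested genes are not matched for 3′ UTR length. Matches for miR-146a-5p lay in Skint3, Chst2, Hyal6 and Otud1, 4 of the 7 genes, against 12.6% of 13515 tested genes with an annotated 3′ UTR. They are shown in the sense direction of the transcript, 5′ to 3′, with the match in capitals.
Skint3, UTR base 850: aagagtttagcatgAGTTCTCat
Chst2, UTR base 5224: caaaaataaaatgcAGTTCTCct
Hyal6, UTR base 1153: gatgggcatgtagaAGTTCTCct
Otud1, UTR base 1114: ttgtacaatgtagcAGTTCTCag
Skint3, Chst2, Otud1 and Coro2a held a match for miR-181a-5p, against 18.6% of tested genes. Chst2 and Coro2a held one for miR-142a-3p, against 6.9%, and Skint3 held one for let-7, against 10.6%.
Coro2a, miR-142a-3p, UTR base 1147: tattctccatccctACACTACac
Skint3, let-7, UTR base 639: gaacataaagcatgCTACCTCca

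Longer 3′ UTRs hold more matches by length alone. Chst2, with 5407 bases of 3′ UTR, matched 8 of the 22 families, and the median of 621 tested genes of similar length (within 20%) was also 8. Skint3 (2261 bases) matched 5 families beside a median of 4, Coro2a (2199 bases) 3 beside 4, and Hyal6 (1661 bases) 1 beside 3. Otud1 (1157 bases) matched 6 beside a median of 2. Alb (169 bases) and Tesk1 (567 bases) held no match to any of the 22 families. A match is a string of letters and not a site shown to be bound, and no match says only that these letters are not in the annotated 3′ UTR.

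In naive microglia the Cre+ libraries lay above the Cre- libraries for each of the 7 genes, which is how they were chosen. Skint3 (ENSMUSG00000070868, GRCm38 chromosome 4, 112232245 to 112300468, plus strand) measured 2.14, 1.62 and 1.16 CPM in Cre- replicates 1 to 3 and 32.2, 15.1 and 13.3 CPM in Cre+. The highest value, 32.2, came from the low-Cx3cr1 library. Alb (ENSMUSG00000029368, chromosome 5, 90460897 to 90476602, plus strand) measured 1.76, 1.32 and 1.91 CPM in the Cre- libraries, against 17.7, 16.8 and 19.9 CPM in Cre+, with the 3 Cre+ libraries close together. Hyal6 (ENSMUSG00000029679, chromosome 6, 24733245 to 24745452, plus strand) measured 2.14, 1.38 and 0.924 CPM in the Cre- libraries, against 17.9, 10.3 and 10.1 CPM in Cre+. Coro2a (ENSMUSG00000028337, chromosome 4, 46536937 to 46602202, minus strand) was the one of these 4 with a clear Cre- level, 17.1, 15.2 and 19.2 CPM, and reached 135, 90.7 and 121 CPM in Cre+.

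The other 3 genes rose from different base levels. Chst2 (ENSMUSG00000033350, chromosome 9, 95399292 to 95406722, minus strand) went from 1.70, 1.27 and 0.957 CPM in Cre- to 11.5, 12.1 and 21.2 CPM in Cre+. Otud1 (ENSMUSG00000043415, chromosome 2, 19657752 to 19660583, plus strand) measured 28.2, 8.24 and 10.3 CPM in the Cre- libraries, against 83.6, 107 and 133 CPM in Cre+. Its Cre- replicate 1 lay well above the other Cre- libraries, and leaving it out raised the fitted log2 fold change from 2.83 to 3.54. Tesk1 (ENSMUSG00000028458, chromosome 4, 43441939 to 43448064, plus strand) went from 3.46, 1.59 and 2.11 CPM to 8.28, 17.9 and 19.8 CPM. The low-Cx3cr1 library was the lowest Cre+ library for Chst2, Otud1 and Tesk1, and the highest for Skint3, Hyal6 and Coro2a.

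Fitted naive log2 fold changes ran from 2.75 ± 0.27 for Coro2a to 3.64 ± 0.40 for Skint3 (SE, n = 3 per group), with Chst2 at 3.55, Alb at 3.45, Hyal6 at 3.14, Otud1 at 2.83 and Tesk1 at 2.76. Other scalings, filters and left-out libraries gave values between 2.41 and 3.87, and without the low-Cx3cr1 libraries Skint3 was at 3.10, Alb at 3.43, Hyal6 at 2.78, Coro2a at 2.59, Chst2 at 3.66, Otud1 at 2.97 and Tesk1 at 3.02. In naive microglia 14.7% of the tested genes were called higher in Cre+, a call being an edgeR adjusted p below 0.05 in the given direction. By fold the 7 genes ranked between 8 and 38 of those 2580 genes, with 31 others at or above the rank of Coro2a, so they are a selection from the top and not the whole of it. Just above Skint3 stood Hcn2 (3.71), Tmc5 (3.73) and Cebpb (4.14), and just below Coro2a stood the heat-shock genes Hspa1b (2.73) and Hspa1a (2.69) and the predicted gene Gm2199 (2.69). On a per-length scale, CPM per kilobase of annotated exon, the mean naive Cre+ levels were 38.1 for Otud1, 17.9 for Coro2a, 7.74 for Alb, 5.25 for Skint3, 3.70 for Hyal6, 3.46 for Tesk1 and 2.04 for Chst2.

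Followed through the other states, the 7 genes separated by their level in Cre- microglia. This grouping was made after the values were seen. Skint3, Alb and Hyal6 stayed at or below 2.65 CPM in all 12 Cre- libraries, and Coro2a stayed between 15.2 and 32.2 CPM. Chst2, Otud1 and Tesk1 were low in naive Cre- microglia only, and stood at 20 to 57.7, 36.4 to 84.3 and 5.16 to 29.1 CPM in the 9 other Cre- libraries.

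**Figure D1:**
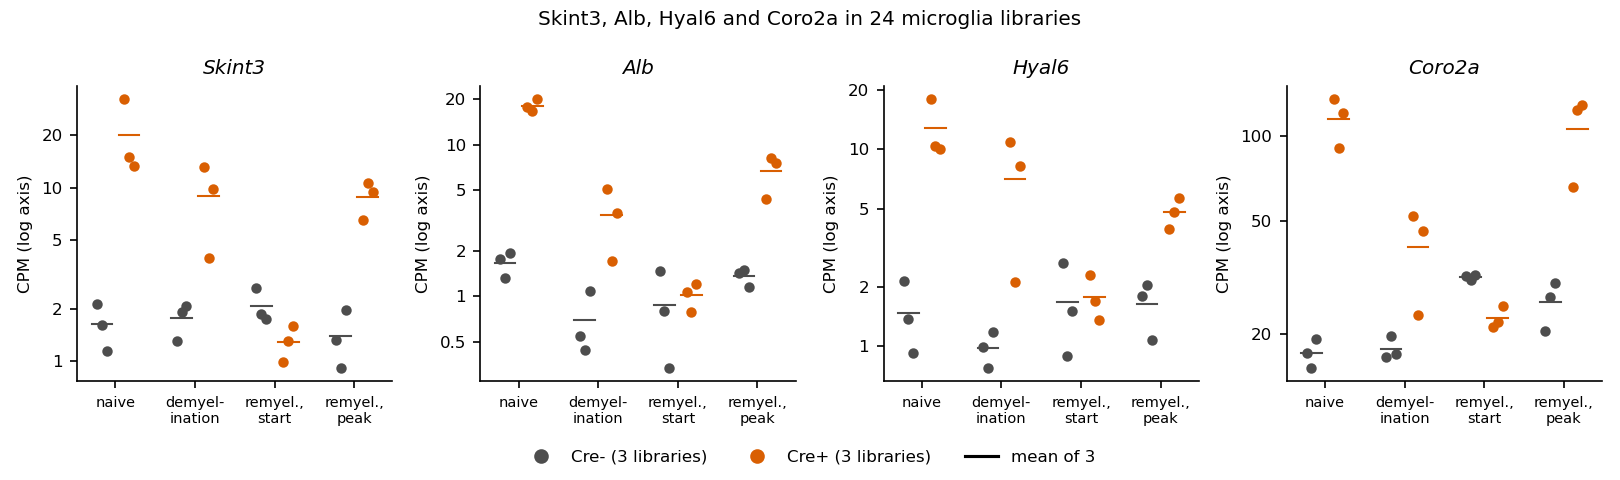
CPM of Skint3, Alb, Hyal6 and Coro2a (log axis) in each of 24 libraries, by state and genotype; each point is a library and each bar the mean of 3, and start and peak name the tamoxifen timing. Cre+ points lie above Cre- points in naive, demyelination and peak-tamoxifen libraries, and not in start-tamoxifen libraries.

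In demyelination 4 of the 7 genes were called higher in Cre+, where 5.69% of tested genes were, and the 4 are Skint3, Alb, Hyal6 and Coro2a. Skint3 measured 1.31, 1.94 and 2.08 CPM in the Cre- libraries, against 13.2, 3.96 and 9.88 CPM in Cre+, a log2 fold change of 2.33 ± 0.40 (edgeR, adjusted p = 0.00132). Alb stood at 0.548, 0.443 and 1.09 CPM against 5.08, 1.70 and 3.56 CPM (2.29 ± 0.39, adjusted p = 0.000891). All 3 Cre+ libraries exceeded every Cre- library for both genes. The share of all tested genes that separate in this way was not counted in any state. Hyal6 rose from 0.987, 0.775 and 1.18 CPM to 10.9, 2.12 and 8.21 CPM (2.84 ± 0.48, adjusted p = 0.00114). Coro2a rose from 16.6, 19.7 and 17.03 CPM to 52.3, 23.2 and 46.1 CPM (1.19 ± 0.26, adjusted p = 0.00905).

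Cre+ replicate 2 was the lowest of the demyelination Cre+ libraries for each of these 4 genes, and it is the library with the usual Cx3cr1 level. Without the 3 low-Cx3cr1 libraries it alone stood for the demyelination Cre+ group, its spread assumed to be that of the other groups, and no member was called by edgeR: log2 fold changes were 1.19 for Skint3 (adjusted p = 0.243), 1.30 for Alb (0.446), 1.14 for Hyal6 (0.556) and 0.43 for Coro2a (0.805). Over all genes the calls fell from 1612 to 81. Coro2a also lost its call without Cre+ replicate 1 (adjusted p = 0.0726) and in a fit of the 6 demyelination libraries alone (0.0665). In the single library that remained, Skint3 at 3.96 CPM was 1.90 times and Coro2a at 23.2 CPM 1.18 times the highest Cre- value.

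**Figure D2:**
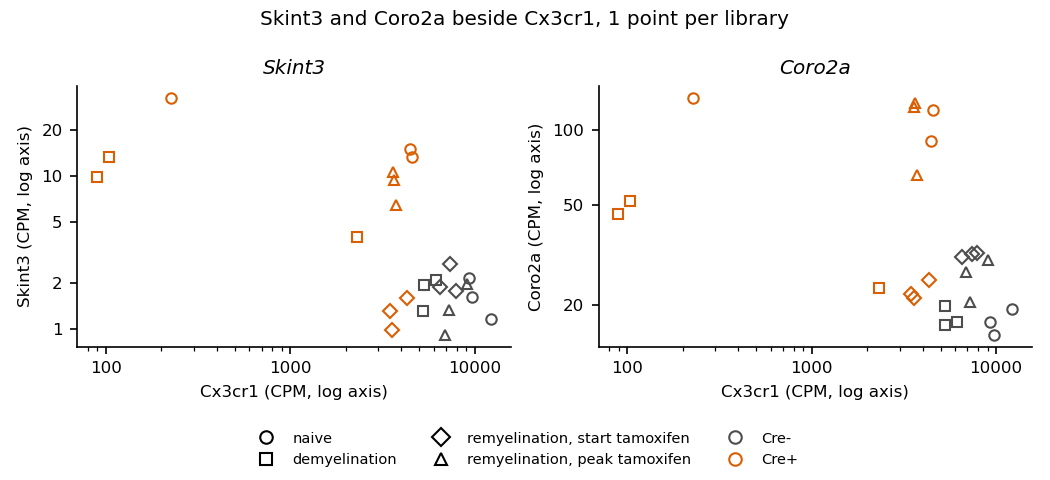
Skint3 and Coro2a against Cx3cr1 (CPM, log axes), with 1 point per library, colour for genotype and marker shape for state. The 3 libraries at the left have Cx3cr1 at 89.6 to 227 CPM, while the naive and peak-tamoxifen Cre+ libraries with Cx3cr1 at 3585 CPM or more also hold both genes above the Cre- points, and the start-tamoxifen Cre+ libraries do not.

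With start tamoxifen none of the 7 genes was called by edgeR, where 0.0341% of tested genes (6 genes) were called in either direction. The smallest unadjusted edgeR p of the 7 was 0.0961, for Coro2a, and DESeq2 gave no adjusted p for these genes. Skint3 measured 2.65, 1.87 and 1.76 CPM in the Cre- libraries, against 0.993, 1.31 and 1.60 CPM in Cre+ (log2 -0.68 ± 0.50, approximate 95% interval from the standard error -1.65 to 0.30). Alb stood at 1.47, 0.800 and 0.336 CPM against 1.07, 0.787 and 1.20 CPM (0.25, interval -0.70 to 1.20). Both intervals lie below the demyelination estimates of these genes, which have errors of their own. The direct test between these states, given below, did not pass the threshold for Alb (edgeR interaction, adjusted p = 0.0694). Hyal6 stood at 2.65, 0.889 and 1.51 CPM against 2.29, 1.71 and 1.36 CPM (0.10, interval -0.93 to 1.13). Coro2a measured 32.0, 30.9 and 32.2 CPM in the Cre- libraries, against 21.2, 22.0 and 25.1 CPM in Cre+ (-0.48, interval -1.01 to 0.06, adjusted p = 0.62). For Skint3 and Coro2a the 3 Cre+ libraries lay below the 3 Cre- libraries, the other way round from the other states. Neither difference was called, and the share of all tested genes that separate so was not counted.

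With peak tamoxifen the same 4 genes were called higher in Cre+, where 6.99% of tested genes were. Skint3 rose from 1.32, 0.917 and 1.98 CPM to 6.48, 10.6 and 9.40 CPM (log2 2.66 ± 0.44, edgeR adjusted p = 0.000443). Alb rose from 1.42, 1.48 and 1.15 CPM to 4.38, 8.17 and 7.62 CPM (2.31 ± 0.38, adjusted p = 0.000242). Coro2a rose from 20.5, 27.0 and 30.3 CPM to 66.0, 124 and 128 CPM (2.03 ± 0.27, adjusted p = 9.09e-05). These 3 calls held under each other scaling, filter, tool and left-out library that was tried. Hyal6 rose from 1.80, 2.05 and 1.07 CPM to 3.92, 4.82 and 5.64 CPM (1.54 ± 0.49), and its adjusted p of 0.0448 sat at the threshold: it was 0.0548 to 0.155 without any 1 of the 6 libraries, 0.0553 with upper-quartile scaling and 0.0509 with GC and length offsets. All 6 peak-tamoxifen libraries have Cx3cr1 at the usual level for their genotype. Cre+ replicate 1 was the lowest Cre+ library for each of the 4 genes.

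**Figure D3:**
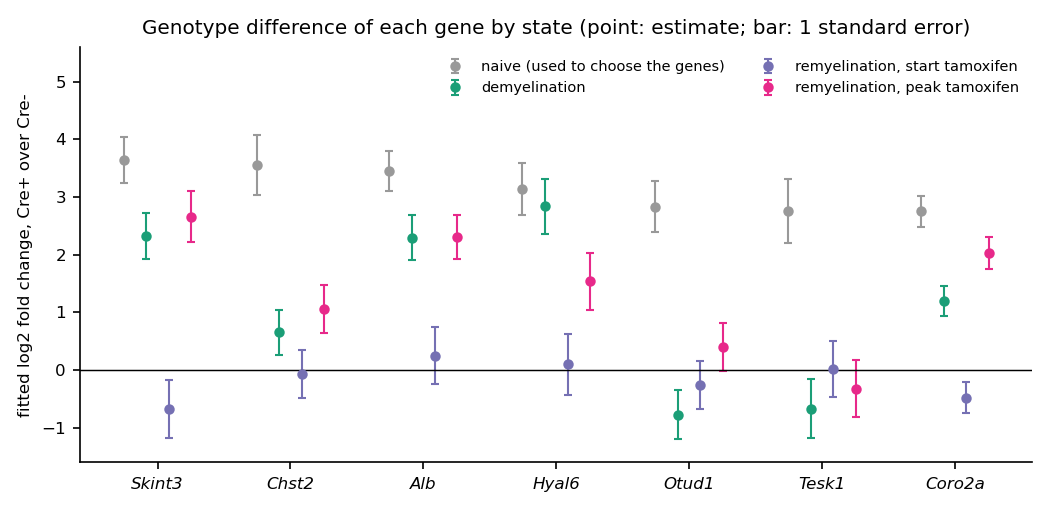
Fitted log2 fold change of Cre+ over Cre- (y axis) for each gene (x axis) in the 4 states; points are estimates from 3 libraries per group and bars are 1 standard error. Skint3, Alb, Hyal6 and Coro2a lie above 1 in demyelination and with peak tamoxifen and near or below 0 with start tamoxifen, and Otud1 and Tesk1 lie below 0.5 in all 3 tested states.

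The genotype difference was then compared between states. From demyelination to start-tamoxifen remyelination it fell by 3.01 ± 0.64 on the log2 scale for Skint3 (edgeR interaction, adjusted p = 0.0147), by 2.74 ± 0.71 for Hyal6 (0.0367) and by 1.67 ± 0.38 for Coro2a (0.0234), which makes 3 of 7 genes where 2.94% of tested genes were called lower. Alb fell by 2.04 without passing the threshold (0.0694). From start to peak tamoxifen it was larger by 3.33 ± 0.67 for Skint3 (0.00679) and by 2.51 ± 0.38 for Coro2a (0.00125), 2 of 7 genes where 2.87% of tested genes were called higher. For Alb that difference was 2.06 ± 0.63 (0.0643), and for Hyal6 1.44 ± 0.72 (0.283). Both comparisons share the start-tamoxifen libraries. DESeq2 called Alb in both (0.0125 and 0.0178). Left-out libraries ended calls in the first comparison only: Hyal6 lost its call in 11 of 12 such fits (adjusted p 0.0549 to 0.129), Coro2a in 7 (0.0504 to 0.0831) and Skint3 in 3 (0.0511 to 0.0529, without demyelination Cre+ replicate 1, start Cre- replicate 2 or start Cre+ replicate 2). Without the 3 low-Cx3cr1 libraries no gene of the 7 was called between demyelination and start tamoxifen (Skint3 -1.83, adjusted p = 0.134), and the difference between tamoxifen timings, which does not use those libraries, was called for Skint3, Coro2a and Alb (Alb adjusted p = 0.0416).

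Within Cre+ mice the same 4 genes lay lower with start tamoxifen than in demyelination, with log2 differences of -2.79 ± 0.43 for Skint3 (edgeR adjusted p = 8.73e-06), -1.98 ± 0.46 for Hyal6 (0.000748), -1.77 ± 0.39 for Alb (0.000334) and -0.83 ± 0.26 for Coro2a (0.0106). Chst2 was lower too (-1.43 ± 0.40, 0.00512), and Tesk1 was higher (1.64 ± 0.51, 0.0104). That is 5 genes lower where 30.8% of tested genes were, and 1 higher where 32.5% were, so calls were common in this comparison; without the 3 low-Cx3cr1 libraries Skint3 (-1.61, 0.00108) and Tesk1 (2.04, 0.00767) were the 2 called. With GC and length offsets Tesk1 was at 0.77 and not called (0.179), without demyelination Cre+ replicate 1 Coro2a lost its call (-0.58, 0.0831), and without replicate 3 Otud1 was called higher (1.17, 0.0301). In Cre- mice Coro2a was the only one of the 7 called (0.84 ± 0.27, adjusted p = 0.0141), where 26.3% of tested genes were called higher, and GC and length offsets removed the call (0.35, 0.264). From start to peak tamoxifen within Cre+ mice, Skint3 (2.76 ± 0.44, 0.000294), Alb (2.73 ± 0.39, 5.59e-05) and Coro2a (2.22 ± 0.27, 4.62e-05) were called higher, 3 of 7 where 8.83% of tested genes were. Hyal6 missed the threshold there at 1.42 ± 0.48 (0.0513). Demyelination and start-tamoxifen libraries differ in depth and in the style of their sample titles, and the titles also differ between tamoxifen timings. Within a genotype, state or timing therefore cannot be told apart from these sets of libraries.

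Markers of other cell types differed between the groups too. Over all tested genes 9.17% were called in either direction in demyelination and 11.0% with peak tamoxifen. In demyelination 8 neutrophil markers gave sums of 1329 to 1679 CPM for Cre+ against 212 to 889 CPM for Cre-, and with peak tamoxifen of 445 to 5204 CPM against 177 to 287 CPM. None of the 8 was called between genotypes in demyelination. In both states the Cre+ libraries were the higher ones, as for Skint3, Alb, Hyal6 and Coro2a. Within the states the order was different: the peak library with 5204 CPM of neutrophil markers (replicate 3) and the one with 445 CPM (replicate 2) held Skint3 at 9.40 and 10.6 CPM and Coro2a at 128 and 124 CPM. Start-tamoxifen Cre- replicate 2 held 4092 CPM of neutrophil markers with Skint3 at 1.87 and Alb at 0.800 CPM. In naive libraries the neutrophil sums overlapped, 130 to 512 CPM for Cre+ against 165 to 492 CPM for Cre-. Monocyte markers (7 genes) summed to 92.2 to 655 CPM in Cre+ against 56.2 to 81.0 CPM in Cre- with peak tamoxifen and overlapped in demyelination (175 to 211 against 94.8 to 215 CPM), where 3 of 7 were called lower in Cre+ (median log2 fold change -1.29), as were 2 of 8 markers of border-associated macrophages. Mural-cell markers in demyelination summed to 128, 82.7 and 112 CPM in Cre+ replicates 1 to 3, above the 50.4, 66.3 and 62.9 CPM of Cre-, with 1 of 6 called higher. Their order over the Cre+ libraries was that of Skint3, Alb, Hyal6 and Coro2a, with replicate 1 highest and replicate 2 lowest. With start tamoxifen, where none of the 7 genes was called, mural-cell markers summed to 93.6 to 107.5 CPM in Cre+ against 41.9 to 66.6 CPM in Cre-. Endothelial markers in demyelination summed to 117 to 121 CPM in Cre+ against 85.1 to 107 CPM in Cre-, with none of 6 called. With peak tamoxifen 2 of 8 neutrophil markers were called higher, and 4 of 6 mural-cell and 3 of 7 astrocyte markers lower, in Cre+ by edgeR. Whether such cells add to the values of these genes was not tested beyond these levels. In bulk RNA a change in the share of cells that express a gene cannot be told apart from a change per cell.

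Other hyaluronan genes were called in the same states as Hyal6. Of 15 genes for hyaluronan synthesis, breakdown and binding, 12 were tested, and 5 were called higher in demyelination and 5 with peak tamoxifen: Hyal6, Hyal4, Hyal5, Cemip2 and Hmmr in each case, with none called lower. Without Hyal6 that is 4 of 11 in each state, where 5.69% of all tested genes were called higher in demyelination and 6.99% with peak tamoxifen. In naive libraries 7 of these 11 were called higher and none lower, where 14.7% of all tested genes were higher. The median log2 fold change of the 11 tested genes other than Hyal6 was 0.63 in demyelination and 0.49 with peak tamoxifen, beside -0.01 over all tested genes in each, and -0.05 with start tamoxifen beside -0.04. Hyal4 and Hyal5, hyaluronidase-family paralogs, follow Hyal6 on the plus strand of chromosome 6 at 24748329 to 24767662 and 24857997 to 24891958, and Spam1, the sperm hyaluronidase gene, lies between those genes.

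Hyal4 measured 1.54, 1.88 and 1.94 CPM in the demyelination Cre- libraries, against 10.9, 3.54 and 6.26 CPM in Cre+ (1.95 ± 0.37, edgeR adjusted p = 0.0019). Hyal5 stood at 1.54, 2.27 and 1.23 CPM against 8.95, 2.69 and 5.88 CPM (1.81 ± 0.39, 0.00493). As with Hyal6, Cre+ replicate 2 was the lowest Cre+ library for both, and without the low-Cx3cr1 libraries neither was called (Hyal4 1.03, adjusted p = 0.571; Hyal5 0.73, 0.751); without Cre+ replicate 1 alone the Hyal5 call was lost too (0.0637). With peak tamoxifen Hyal5 rose from 1.89, 1.69 and 1.89 CPM to 5.02, 10.5 and 8.84 CPM (2.15 ± 0.41, 0.00113). Hyal4 rose from 1.14, 1.62 and 0.576 CPM to 2.19, 3.10 and 3.76 CPM (1.42 ± 0.43, 0.0358), and its call was lost without any 1 of 4 libraries (adjusted p up to 0.15 without Cre+ replicate 3).

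Of 14 chromosomal neighbours of the 7 genes 12 were tested, with 2 called higher in demyelination and 3 higher and 1 lower with peak tamoxifen. Over all tested genes 5.69% and 6.99% were called higher in these states, and 9.17% and 11.0% in either direction. Trim14, next to Coro2a, was higher with peak tamoxifen by 0.52 ± 0.16 on the log2 scale (edgeR adjusted p = 0.0326) and not called in demyelination (-0.25, 0.348), and Car9, near Tesk1, was lower with peak tamoxifen (-0.95 ± 0.30, 0.0376). Wasl, an actin-nucleation regulator next to Hyal6 on the minus strand, was higher by 0.38 ± 0.11 in demyelination (edgeR adjusted p = 0.0325; 0.24 and 0.827 without the low-Cx3cr1 libraries) and by 0.39 ± 0.12 with peak tamoxifen (0.0307). Spam1 stayed at or below 0.846 CPM in demyelination and peak-tamoxifen libraries and was not called in either. Read sharing between paralogs was checked on the annotated transcripts: none of the 3403 different 50-base words of Hyal6 occurs in a transcript of another gene on either strand, and the same holds for Hyal4 and Hyal5. Cemip2, a cell-surface hyaluronidase gene on chromosome 19, rose by 1.42 ± 0.25 in demyelination (0.00126; 0.69 and 0.552 without the low-Cx3cr1 libraries) and by 1.16 ± 0.24 with peak tamoxifen (0.00303). Hmmr, which encodes a hyaluronan-binding protein of the mitotic spindle, rose by 1.65 ± 0.34 (0.00406; 1.74 and 0.0023 without the low-Cx3cr1 libraries) and 3.58 ± 0.42 (1.03e-05).

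**Figure D4:**
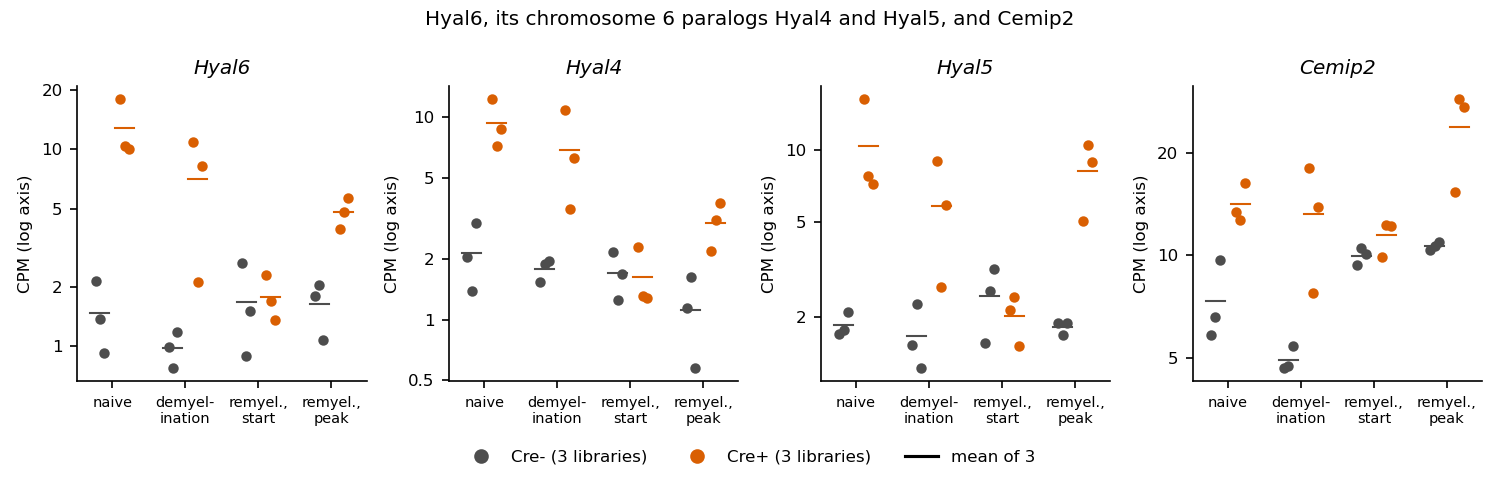
CPM (log axis) of Hyal6, Hyal4, Hyal5 and Cemip2 in 24 libraries by state and genotype, with 1 point per library and bars for the mean of 3. The 3 chromosome 6 genes share the pattern of low Cre- values in every state and higher Cre+ values except with start tamoxifen.

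Skint3 and Alb were set beside their gene families. Of 11 Skint genes, all on chromosome 4, Skint3 was the only one with enough counts to be tested: it held 2968 counts over the 24 libraries, and the other 10 held between 1 (Skint2) and 45 (Skint5). Of the 3841 different 50-base words of Skint3, 19 (0.495%) also occur in Skint2. The 6 keratinocyte markers, a check for the skin in which Skint genes are known, gave 1.69 to 3.21 CPM for naive Cre+ against 8.48 to 21.2 CPM for naive Cre- libraries, the opposite order to Skint3. In demyelination they overlapped, at 19.2, 21.2 and 3.13 CPM in Cre+ replicates 1 to 3 beside 14.9, 7.31 and 6.29 CPM in Cre-, with a median log2 fold change of 0.66 and none of 4 tested markers called. With peak tamoxifen they summed to at most 2.18 CPM in any library, and Krt5 had no count there.

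Of 18 albumin-family and liver plasma protein genes 6 were tested. Alb was the only one called in demyelination, and with peak tamoxifen Alb and Hp, the haptoglobin gene that neutrophils also express, were called. Hp was uneven among the Cre+ libraries, with 68.5 CPM in replicate 3 beside 6.66 and 3.44 CPM (3.43 ± 1.02, edgeR adjusted p = 0.0398), and replicate 3 is the library that held 5204 CPM of neutrophil markers. The median log2 fold change of the 5 genes other than Alb was -0.16 in demyelination and 0.09 with peak tamoxifen, beside -0.01 over all tested genes. Afp, the alpha-fetoprotein gene next to Alb on chromosome 5, measured 11.0, 11.1 and 8.61 CPM in the demyelination Cre- libraries, against 17.2, 12.4 and 13.8 CPM in Cre+ (0.50, edgeR adjusted p = 0.138; 0.32 and 0.897 without the low-Cx3cr1 libraries). Hepatocyte markers were near 0: 12 of them summed to 0.336 to 1.98 CPM over all 24 libraries, Ahsg had no count in any library, and the naive sums were 0.462 to 0.749 CPM for Cre+ against 0.495 to 0.878 CPM for Cre-.

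Coro2a was set beside the other coronins, which bind actin filaments, and beside the NCoR complex, which silences genes with the histone deacetylase Hdac3. All 7 coronins were tested. In demyelination Coro2a was called higher and Coro7, a coronin of the Golgi, lower (-0.39 ± 0.12, edgeR adjusted p = 0.038; -0.21 and 0.861 without the low-Cx3cr1 libraries). With peak tamoxifen Coro2a and Coro1a, the leukocyte coronin, were called higher, Coro1a by 0.37 ± 0.11 (0.0248). Coro1b was called in neither (-0.22 in both, 0.101 and 0.0822). The median of the 6 other coronins was 0.04 in demyelination and -0.15 with peak tamoxifen. Of the 7 NCoR genes tested Coro2a was the only one called in demyelination and with peak tamoxifen. In naive libraries 1 of the 6 other coronins was called higher and 1 lower, and 4 of the 6 other NCoR genes were called higher. Over all tested genes 14.7% were called higher there. Gps2, a subunit of the complex, was at 0.28 ± 0.10 (0.0601) and Ncor1, its scaffold, at 0.15 ± 0.25 (0.766) with peak tamoxifen. Gm16731, a gene on the opposite strand that overlaps Coro2a and shares 236 of its 6443 different 50-base words, stood at 0.840 CPM or less in every library.

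Chst2, Otud1 and Tesk1 were not called between genotypes in any tested state. Naive Cre+ libraries held 11.5 to 21.2 CPM of Chst2, and the 9 Cre- libraries of the other states 20 CPM or more. Tesk1 was likewise higher in all 6 remyelination Cre- libraries (21.9 to 29.1 CPM) than in the naive Cre+ libraries (8.28 to 19.8 CPM). In demyelination Chst2 measured 57.7, 44.1 and 21.4 CPM in the Cre- libraries, against 63.5, 43.2 and 87.6 CPM in Cre+ (log2 0.66 ± 0.39, interval -0.10 to 1.42, edgeR adjusted p = 0.336), and it was at 0.12 (0.99) without the low-Cx3cr1 libraries. With start tamoxifen it stood at 21.8, 30.9 and 22.9 CPM against 17.3, 29.6 and 25.1 CPM (-0.07, interval -0.88 to 0.74, 0.984). With peak tamoxifen it stood at 24.8, 29.9 and 20 CPM against 25.6, 56.5 and 73.8 CPM (1.06 ± 0.41, 0.108). That interval, 0.26 to 1.85 before adjustment, lay above 0. Without Cre+ replicate 1, the one library at the Cre- level, Chst2 was called (1.39, 0.0302).

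Otud1 measured 84.3, 77.5 and 36.4 CPM in the demyelination Cre- libraries, against 20.03, 35.5 and 61.1 CPM in Cre+ (-0.77 ± 0.42, interval -1.58 to 0.04, edgeR adjusted p = 0.292). The groups overlapped, and the estimate had the opposite sign to the naive rise, also without the low-Cx3cr1 libraries (-0.86, 0.819). With start tamoxifen it stood at 64.9, 82.4 and 71.9 CPM against 54.8, 68.6 and 59.5 CPM (-0.26, interval -1.08 to 0.56, 0.91). With peak tamoxifen it stood at 58.9, 51.7 and 69.4 CPM against 75.2, 76.5 and 85.1 CPM. There the 3 Cre+ libraries exceeded the Cre- libraries, the fitted difference was 0.40 ± 0.42 (0.608), and a fit of the 6 libraries alone, with its own smaller spread, called it (0.38, 0.0472).

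Tesk1 measured 18.7, 13.9 and 5.16 CPM in the demyelination Cre- libraries, against 2.75, 5.94 and 15.4 CPM in Cre+ (-0.67 ± 0.51, interval -1.68 to 0.34, edgeR adjusted p = 0.486), and the estimate was -1.04 (0.74) without the low-Cx3cr1 libraries. With start tamoxifen it stood at 21.9, 28.1 and 22.8 CPM against 18.6, 26.3 and 28.6 CPM (0.02, interval -0.95 to 0.98, 0.999). With peak tamoxifen it stood at 23.9, 26.7 and 29.1 CPM against 27.3, 17.4 and 19.5 CPM (-0.32, interval -1.29 to 0.66, 0.745). In demyelination Tesk1, Otud1 and Chst2 were lowest in the same Cre- library, replicate 3, and highest in the same Cre+ library, also replicate 3. The same held for Dicer1, at 15.2 and 17.5 CPM in those libraries. The transcripts of Tesk1 overlap those of Cd72, a lectin receptor gene on the opposite strand, in 1376 of 4487 different 50-base words (30.7%). Whether the counting used strand is not stated, so Tesk1 counts are uncertain. Cd72 itself stood at 9.59 to 14.2 CPM in naive and at 201 to 349 CPM in demyelination libraries and was not called between genotypes (adjusted p = 0.522 in demyelination).

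**Figure D5:**
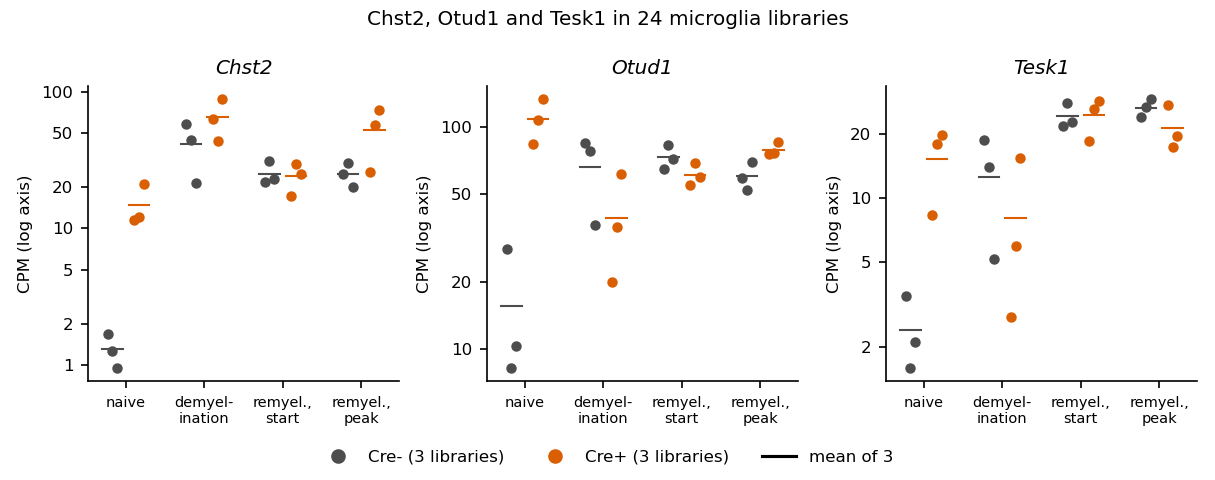
CPM (log axis) of Chst2, Otud1 and Tesk1 in 24 libraries by state and genotype; each point is a library and each bar the mean of 3. Naive Cre- points stand below all other points for Chst2, and for Otud1 and Tesk1 below all but demyelination Cre+ replicate 1.

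The families of these 3 genes were counted in both directions, where 9.17% of all tested genes were called in demyelination and 11.0% with peak tamoxifen. Of 14 carbohydrate sulfotransferases 10 were tested. Of the 9 other than Chst2, Chst1 (0.63 ± 0.16, edgeR adjusted p = 0.0159) was higher and Chst7 (-1.36 ± 0.40, 0.0439) and Chst12 (-0.39 ± 0.11, 0.0262) were lower in demyelination, and Chst10 (-0.81 ± 0.21, 0.0151) was lower with peak tamoxifen. The median of the 9 genes other than Chst2 was -0.08 in demyelination and -0.27 with peak tamoxifen. Of 15 OTU deubiquitinases 13 were tested. Of the 12 other than Otud1, 7 were called higher and none lower in naive Cre+ libraries, beside 14.7% of all tested genes called higher. Of the 9 sulfotransferases other than Chst2, 1 was higher and 3 were lower there. In demyelination Otub2 was called higher (1.06 ± 0.30, 0.0314) and Otud5 lower (-0.42 ± 0.13, 0.0497); with peak tamoxifen Otub2 missed the threshold (0.87 ± 0.30, 0.0674). Of 11 genes for cofilins, their kinases and their phosphatases 10 were tested. Of the 9 other than Tesk1, 2 were called higher and none lower in naive Cre+ libraries. The actin-severing proteins Cfl1 (0.32 ± 0.10, 0.0351) and Dstn (0.38 ± 0.12, 0.0357) were higher in demyelination, and the cofilin phosphatase gene Ssh2 (0.39 ± 0.10, 0.0141) with peak tamoxifen. None of the 7 demyelination calls in these families held without the low-Cx3cr1 libraries (adjusted p from 0.467 to 0.959), where Chst7 was at -0.53, Chst12 at -0.08 and Otub2 at 0.46.

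The promoters, 250 bases before to 50 after the first listed RefSeq start of each gene on GRCm38.p6, differed in base composition. For Chst2 this window, 95407221 to 95407520, lies upstream of the counted gene, whose 5′ end is at 95406722. GC content was 38.7% for Skint3, 40.0% for Alb and 36.0% for Hyal6, with 1, 3 and 2 CpG dinucleotides in 300 bases. It was 73.0% for Chst2, 70.3% for Otud1, 60.7% for Tesk1 and 76.0% for Coro2a, with 34, 33, 25 and 43 CpG. The median of 11436 promoters of tested genes was 60.3% and 20 CpG. Of the 4 genes called in demyelination and with peak tamoxifen, Skint3, Alb and Hyal6 had the fewest CpG of the 7 and Coro2a the most.

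Genes with the most similar pattern were taken as the 3 with the highest Pearson correlation of log2 CPM over the 24 libraries, among genes with a mean log2 CPM of at least 2. These values describe shared libraries, states and genotypes and carry no test. They were Twf1 (0.928), Cldn12 (0.926) and Lpp (0.918) for Skint3, Prim2 (0.951), Entpd6 (0.945) and Slc38a9 (0.934) for Alb, and Osgin1 (0.913), Entpd6 (0.911) and Slc19a2 (0.904) for Hyal6. Coro2a was closest to Tbc1d5 (0.953), Slc12a9 (0.943) and Atp7a (0.938). Chst2 was closest to Cpd (0.969), Bcl6 (0.928) and Ttyh2 (0.927). Otud1 was closest to Smap1 (0.955), Mcl1 (0.954) and Ncor1 (0.953), and Tesk1 to Ankrd40 (0.974), Cebpb (0.973) and Hnrnpd (0.970).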

How the data were processed

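RNA from sorted microglia was measured in 24 libraries, 3 per group, and each library was placed in its group by its labels. Per the submitters' processing notes the authors trimmed reads with Trimmomatic 0.36, aligned them to GRCm38 with STAR 2.5.2b and counted them with featureCounts of Subread 1.5.2, and used DESeq2. The deposited values are raw counts per Ensembl gene. Neither strand setting, multimapping nor annotation release was stated. All 24 columns of counts matched a sample label. Symbols and positions came from GENCODE M21, which held 49056 of 49315 identifiers.

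From the counts, edgeR 4.0.16 in R 4.3.3 was run: filterByExpr over the 8 groups, TMM scaling, group means over all 24 libraries (16 residual degrees of freedom), robust quasi-likelihood F tests, 2-sided, Benjamini-Hochberg adjustment over 17579 genes and a threshold of 0.05. Adjusted p-values and calls are from this fit unless another tool is named; ± is the SE of a log2 fold change. The members and lists were chosen with earlier results of these data known. Named genes are the members, the 3 most correlated genes of each, their neighbours by naive fold, genes overlapping a member, and up to 4 genes with the smallest p from each of 9 lists; Hyal5, Spam1, Skint2, Skint5, Ahsg and Krt5 lie outside that rule and were chosen after their values were seen. There were 15 lists of cell type markers. The fit was tested on simulated data. Alternatives were other scalings, filters, DESeq2 1.42.0, GC and length offsets, a replicate block, single states and left-out libraries. List genes were also fitted in demyelination without the low-Cx3cr1 libraries, an alternative chosen after seeing the data. One neighbouring gene is not reported here.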

Additional observations from a re-analysis of the deposited data

Results flagged for a closer look

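Genotype differences of 3 genes differed between states in a test of the difference itself. From demyelination to remyelination with start tamoxifen the Cre+ minus Cre- difference changed by -3.01 for Skint3, -2.74 for Hyal6 and -1.67 for Coro2a on the log2 scale (edgeR interaction). From start to peak tamoxifen it changed by 3.33 for Skint3 and 2.51 for Coro2a. The first set rests on the demyelination libraries with low Cx3cr1, and the second does not use them. All of these comparisons share the start-tamoxifen libraries, so they are not independent of each other.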

How the results depend on the processing

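The lower depth of the remyelination libraries limits the precision of genes near 1 CPM. Over the tested comparisons, 868 gene results were recomputed: 790 kept direction and side of the threshold, 46 lost and 19 gained a call, and 13 changed sign, none of them called before or after. Without the low-Cx3cr1 libraries, members called fell from 4 to 0 in demyelination (all genes 81), from 3 to 0 for its difference from start tamoxifen and from 6 to 2 from demyelination to start tamoxifen in Cre+, and rose from 1 to 2 in Cre-, where GC and length offsets left 0. All genes called with start tamoxifen numbered 65 by DESeq2, 81 without a filter, 40 with its 6 libraries alone and 13 without the low-Cx3cr1 libraries. DESeq2 called 5 members from start to peak tamoxifen in Cre+ and gave no adjusted p for members in the start-tamoxifen genotype comparison. Tesk1 with start tamoxifen was -0.02 with GC and length offsets and -0.04 with the replicate block added. The cause of these shifts was not tested.

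Leaving out 1 library at a time gave 3 to 4 members and 422 to 2165 genes in demyelination (fewest without Cre+ replicate 1), 0 members and 1 to 7 genes with start tamoxifen, and 3 to 4 members and 853 to 2117 genes with peak tamoxifen. It gave 0 to 4 members for the difference between start tamoxifen and demyelination, 2 to 3 for that between tamoxifen timings, 1 to 2 (Cre-) and 5 to 7 (Cre+) from demyelination to start tamoxifen, and 3 to 4 from start to peak. Uncalled values around 0 changed sign: with start tamoxifen Chst2 lay between -0.25 and 0.12, Alb between -0.15 and 0.84, Hyal6 between -0.20 and 0.57 and Tesk1 between -0.11 and 0.18, and from demyelination to start tamoxifen in Cre- Alb lay between -0.33 and 0.79 and Otud1 between -0.13 and 0.39.

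Replicate numbers are shared between genotypes but not stated to mark litters or days. Residuals of same-numbered libraries correlated at 0.146, 0.294 and 0.076 with peak tamoxifen, not all above 0.1. A replicate block gave 1562, 7 and 1957 called genes in demyelination, start and peak tamoxifen beside 1612, 6 and 1935 without it, and changed no call of a member.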
